A study of Mus musculus with 32 samples.

Results

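Muscone was compared with vehicle in GFP-negative cells of the mouse olfactory mucosa, over every gene that could be named on the arrays. The comparison rests on 8 of the 32 arrays in the series, 4 of muscone and 4 of vehicle, taken as all GFP-negative arrays of the muscone experiments. All mice were adult S100a5-tauGFP mice, in which a GFP reporter is tied to S100a5, a calcium-binding protein gene of olfactory neurons whose expression follows neuronal activity. Mice sat singly in an olfactometer with clean air for 26 h, followed by 14 h in which muscone, a musk odorant, or vehicle was delivered for 10 s every 5 min. The mucosa was then dissociated and sorted by GFP, so each experiment gave GFP-positive and GFP-negative cells from both stimuli. A number in the array titles ties 4 arrays together, 1 of each stimulus and fraction, and these sets are called experiments 1 to 4 here. The other 16 arrays came from eugenol experiments with vehicle arrays of their own. How many mice went into an array is not stated, so p-values describe the spread among arrays within experiments, which may be technical. That spread is pooled over all 32 arrays, both fractions included, and is not the spread of the 4 muscone and vehicle pairs alone.

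A mature olfactory sensory neuron expresses a single allele of a single odorant receptor gene, and the olfactory mucosa holds a mosaic of such neurons. An odorant that binds the receptor acts through the G protein subunit Gnal, the cyclase Adcy3 and a cyclic nucleotide-gated channel to fire the neuron. Neurons that switch on an activity reporter are sorted into the GFP-positive fraction and leave the GFP-negative one. In a bulk sample, fewer cells of a type and less of its RNA per cell cannot be told apart.

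The GFP-negative cells were a mixture. Omp, the marker of mature olfactory neurons, had a mean log2 signal of 13.45 ± 0.67 (SD, n = 4) under vehicle and 13.31 ± 0.73 (n = 4) under muscone. S100a5 itself was dim, at 5.80 ± 0.82 (SD, n = 4) under vehicle and 6.14 ± 0.89 under muscone, and its vehicle mean in GFP-positive cells was 6.13. The neutrophil receptor gene Cxcr2 had a vehicle mean of 10.15 in GFP-negative and 5.88 in GFP-positive cells. Vomeronasal receptors, which belong mainly to another organ, mark the dim end of the scale with a median of 4.17. Array medians ran from 6.82 to 8.21, with experiment 3 the lowest, but the arrays of 1 experiment differed by at most 0.0753. Both Xist, at 10.98 to 12.79, and the Y-linked Eif2s3y, at 9.29 to 9.98, were bright on all 8 arrays. The vehicle array of experiment 3 stood apart in the pituitary hormone genes Prl, at 10.88 there and 4.87 to 6.01 on the other 7 arrays, and Gh, at 9.96 there and 5.44 to 7.83 elsewhere.

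No gene passed an adjusted p of 0.05 in GFP-negative cells, which is 0 of 19,938 genes or 0%, in limma with Benjamini-Hochberg adjustment over all genes. The smallest adjusted p was 0.153, and 9 genes shared it. These were the odorant receptors Olfr1440, Olfr1434 and Olfr1020, with Tex26 and Lix1l, all lower, and Arhgap26, Tmod3, Flt1 and Igkv19-93, all higher. A raw p under 0.05 was met by 1704 genes (8.55%), of which 871 were lower (4.37%) and 833 higher (4.18%). Only 7 genes (0.0351%) were lower by more than 1. Leaving out experiment 1 took the lower genes to 501, and leaving out experiment 4 took the higher ones to 454. The median difference over all genes, muscone minus vehicle, was 0.01 on the log2 scale used for every difference here.

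The 3 odorant receptors with the lowest differences, Olfr1440, Olfr1434 and Olfr235, are all linked to muscone. The list of such receptors held Olfr1440, whose human relative is a well-studied muscone receptor, with Olfr1434, Olfr235 and Olfr1431 of the same chromosome 19 cluster. These names were taken in part from what is known of this same study, and the direction of the 4 is therefore not independent evidence. Olfr1433 was listed too but is a synonym of Olfr1434 in RefSeq, and Olfr1437 had no probe set of its own. The 200 bases before each RefSeq gene start are printed below, from GRCm38.p6 on the plus strand, because these 4 genes were measured together and share a cluster. They lie at chr19:12394065-12394264 (Olfr1440), chr19:12279654-12279853 (Olfr1434), chr19:12268032-12268231 (Olfr235) and chr19:12209368-12209567 (Olfr1431). Capitals mark matches to the homeodomain-type letters TAATTA and TAATGA on either strand, the latter printed as its reverse complement TCATTA.
Olfr1440: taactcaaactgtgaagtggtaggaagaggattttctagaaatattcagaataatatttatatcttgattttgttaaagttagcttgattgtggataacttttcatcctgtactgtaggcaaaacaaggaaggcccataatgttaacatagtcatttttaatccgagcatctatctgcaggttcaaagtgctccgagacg
Olfr1434: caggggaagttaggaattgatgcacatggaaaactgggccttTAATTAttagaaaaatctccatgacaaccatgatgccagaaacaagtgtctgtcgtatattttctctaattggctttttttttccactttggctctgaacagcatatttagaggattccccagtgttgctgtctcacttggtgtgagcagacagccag
Olfr235: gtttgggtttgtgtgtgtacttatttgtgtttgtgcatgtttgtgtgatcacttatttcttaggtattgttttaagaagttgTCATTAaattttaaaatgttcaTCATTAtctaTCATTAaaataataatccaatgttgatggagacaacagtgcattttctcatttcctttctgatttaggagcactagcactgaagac
Olfr1431: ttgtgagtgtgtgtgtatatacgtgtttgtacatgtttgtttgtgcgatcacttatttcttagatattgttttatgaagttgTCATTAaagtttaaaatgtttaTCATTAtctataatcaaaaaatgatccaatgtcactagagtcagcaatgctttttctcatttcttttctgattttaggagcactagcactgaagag

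The upstream stretches of Olfr235 and Olfr1431 were 83.4% identical over an alignment of 205 positions, against 44.6% to 51.4% for the other pairs. Olfr235 held 3 TAATGA matches and Olfr1431 held 2, while Olfr1434 held 1 TAATTA match and Olfr1440 neither. TAATTA was found in 15.2% of the 866 odorant receptor promoters in the RefSeq table and in 3.81% of all 27,025, and TAATGA in 21.1% and 6.89%. A match is a description of the letters only.

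Olfr1440 had log2 signals of 11.84, 9.88, 9.40 and 10.81 under vehicle in experiments 1 to 4, and of 10.14, 8.61, 7.98 and 9.19 under muscone. The muscone array was the lower of the pair in each experiment, although the ranges of the groups overlapped. The difference was −1.50 (SE 0.29, 95% interval −2.11 to −0.90), or 2.83-fold lower, with an adjusted p of 0.153 in limma. It was the lowest difference among all genes, and without experiment 3 it was −1.53. Over 17 other settings its adjusted p in limma ran from 0.00814, with arrays centred on odorant receptors, to 0.99998 with no replicate block, and it passed the threshold in 4 of them. With the 8 GFP-negative arrays alone its SE was 0.093 and its adjusted p in limma 0.0126.

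Olfr1434 was at 7.16, 6.80, 6.36 and 7.02 under vehicle and at 6.27, 5.24, 3.88 and 6.29 under muscone. Here each muscone array was below every vehicle array, so the groups did not overlap. Its difference of −1.41 (SE 0.29, adjusted p = 0.153 in limma) was 2.66-fold lower and ranked 3 from the lowest of all genes. The size varied between experiments, from −0.73 in experiment 4 to −2.48 in experiment 3, and without experiment 3 it was −1.06.

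Olfr235 was at 9.74, 8.85, 7.23 and 9.37 under vehicle and at 8.47, 8.10, 6.03 and 8.14 under muscone. The muscone array was lower in 4 of 4 experiments while the groups overlapped across experiments, and the difference was −1.11 (SE 0.31, adjusted p = 0.332 in limma). Olfr1431 was at 8.78, 7.21, 5.62 and 8.19 under vehicle and at 7.49, 6.33, 5.43 and 6.72 under muscone. It was also lower in 4 of 4 experiments, but by 0.20 in experiment 3 against 0.88 to 1.48 in the others. The difference was −0.96 (SE 0.38, adjusted p = 0.496 in limma). Without experiment 3, Olfr235 was at −1.08 and Olfr1431 at −1.22.

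**Figure D1:**
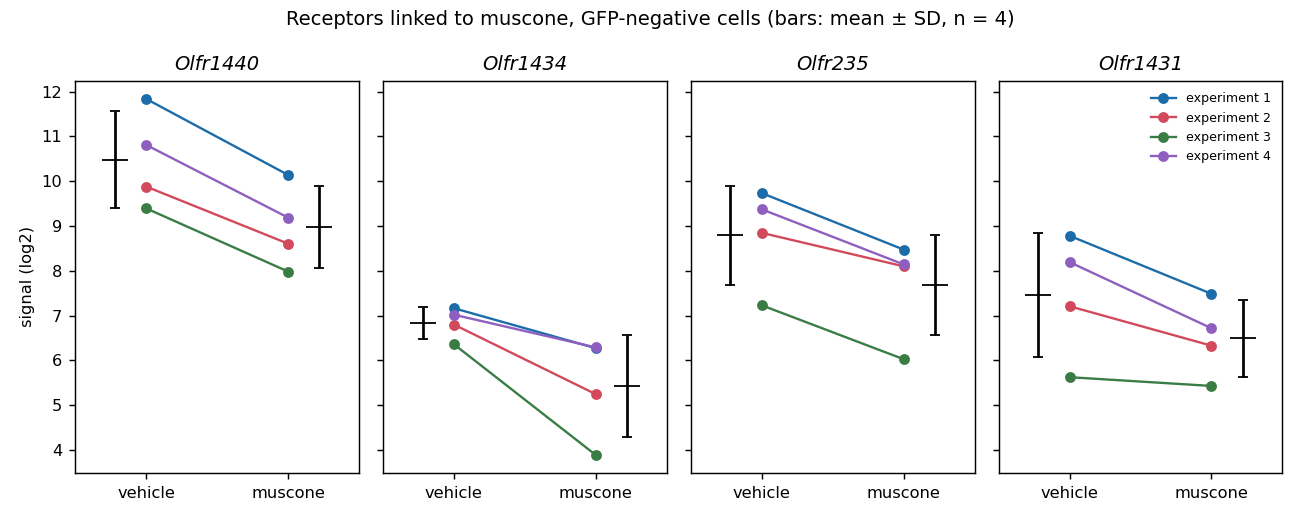
Log2 signal of Olfr1440, Olfr1434, Olfr235 and Olfr1431 in GFP-negative cells, vehicle and muscone, with a line joining the arrays of each of 4 experiments and bars giving mean ± SD (n = 4). Each of the 16 lines goes down from vehicle to muscone, and the 4 experiments keep much of their spread.

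The 4 receptors had a median difference of −1.26, against −0.25 for all odorant receptors. They stood 1.26, 1.17, 0.86 and 0.72 below that median. The experiments gave medians over the 4 of −1.28, −1.08, −1.31 and −1.35, and no setting tried moved the overall median above −0.98. Besides its own probe set, each of Olfr235, Olfr1434 and Olfr1431 shares 1 probe set that is annotated to these 3 genes and to Olfr1436 and Olfr1437. That probe set was lower in 4 of 4 experiments, by 0.78 (SE 0.30, adjusted p = 0.9997 in limma), and it cannot be assigned to a single gene.

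In GFP-positive cells of the same experiments the differences of all 4 were above 0. The Olfr1434 mean was 4.41 under vehicle and 6.79 under muscone in that fraction, so muscone arrays were higher by 2.38, and the Olfr1440 means were 10.84 and 11.79. The Olfr1434 vehicle mean was at the dim end, as vomeronasal medians on those vehicle arrays were 4.87, 4.15, 3.59 and 4.76. The muscone effect in GFP-positive minus that in GFP-negative cells was 3.79 for Olfr1434 (SE 0.41, adjusted p = 0.000101 in limma), the single gene of 19,938 past the threshold in this test, which is 0.00502%. For Olfr1440 it was 2.45 (SE 0.41, adjusted p = 0.0616). Olfr235 and Olfr1431 were higher by 0.29 and 0.19 in GFP-positive cells, and the differences between the fractions, 1.40 and 1.16, had an adjusted p of 0.985 in limma. Lower in 4 of 4 GFP-negative and higher in 4 of 4 GFP-positive comparisons held for 23 of 1027 odorant receptors (2.24%) and 71 of all genes (0.356%). Olfr871 was among them, with −0.41 in GFP-negative and 0.29 in GFP-positive cells and a difference of 0.70 (SE 0.13, adjusted p = 0.0967 in limma).

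**Figure D2:**
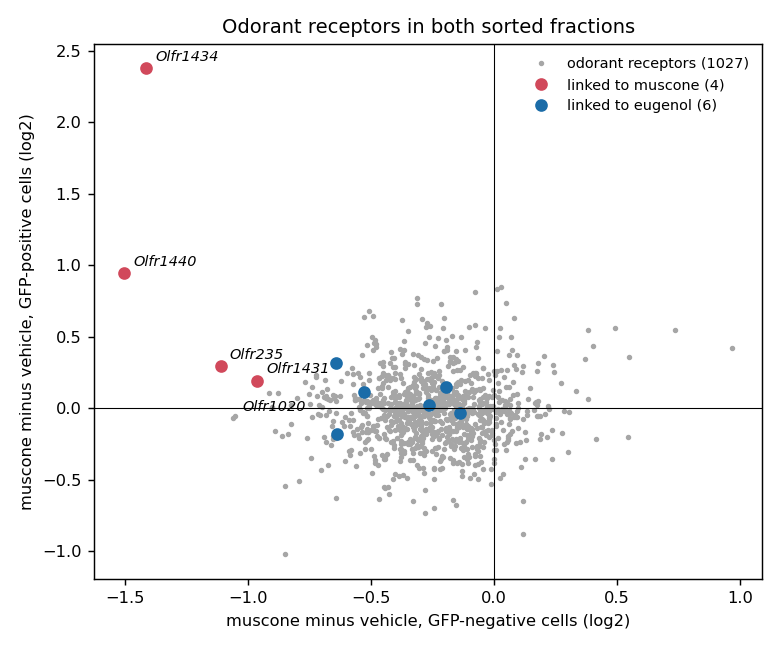
Muscone minus vehicle (log2) in GFP-negative cells on the x axis and in GFP-positive cells on the y axis, 1 point for each of 1027 odorant receptors, with the receptors linked to muscone in red and those linked to eugenol in blue. Olfr1434 (−1.41 and 2.38) and Olfr1440 (−1.50 and 0.94) stand at the upper left, away from the other points.

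In GFP-negative cells of the eugenol experiments the same receptors had differences nearer to 0. Eugenol minus vehicle was −0.16 for Olfr1440, −0.52 for Olfr1434, −0.13 for Olfr235 and −0.25 for Olfr1431. The muscone effect minus the eugenol effect was −1.34 for Olfr1440, −0.90 for Olfr1434, −0.98 for Olfr235 and −0.72 for Olfr1431, each with an adjusted p of 0.9996 in limma. The first 3 had a raw p under 0.05. No gene passed the adjusted threshold in limma for this difference, with 710 of 19,938 (3.56%) at a raw p under 0.05. The 6 receptors linked to eugenol, named from the same kind of knowledge, had a median of −0.40 under muscone and −0.55 under eugenol. Under muscone Olfr73 and Olfr74 were both at −0.64, Olfr610 at −0.53, Olfr961 at −0.26, Olfr913 at −0.20 and Olfr958 at −0.14. Under eugenol the values were −0.57, 0.02, −0.32, −0.77, −0.53 and −0.72 in the same order. Only Olfr73 had a raw p under 0.05 with muscone, and without experiment 3 it was at −0.31. Olfr610 and Olfr961 also moved when experiments were left out, to −0.28 without experiment 3 and to −0.12 without experiment 1, and the sign of Olfr913, Olfr958 and Olfr961 turned in 1 or both of the centrings described next.

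Odorant receptors as a family were lower under muscone on the deposited scale, with a median of −0.25, but this depended on the scale. The median was −0.05 when each array was centred on its mature neuron genes and 0.04 when centred on its odorant receptors. The latter value is near 0 by construction. Those centrings moved the median of all genes from 0.01 to 0.21 and 0.29. Centring adds a constant to each array, so it moves the zero point and leaves the gap between receptors and other genes as it was. The receptor median was −0.26 with arrays centred on all probe sets and −0.25 with quantile normalization. On the deposited scale 898 of 1027 receptors were below 0, and of all genes 47.4% were. A raw p under 0.05 was met by 199 lower receptors (19.4%, against 4.37% of all genes) and 2 higher ones. Receptors lower in 4 of 4 experiments numbered 293 (28.5%, against 9.4% of all genes), and 7 were higher in all 4 (against 9.43% of all genes). The receptors' median was −0.35, −0.20, −0.17 and −0.23 in experiments 1 to 4, and −0.27 without experiment 3, where 194 met a raw p under 0.05. Under eugenol the family's median in GFP-negative cells was −0.14, with 46 lower and 4 higher at a raw p under 0.05, against 1.91% and 0.426% of all genes. The muscone effect minus the eugenol effect had a median of −0.10 over the receptors and 0.05 over all genes. Among the 144 genes lower by more than 0.5 (0.722%), 132 were odorant receptors. The 100 probe sets annotated to several genes including a receptor had a median of −0.30, with 35 lower and 0 higher at a raw p under 0.05.

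**Figure D3:**
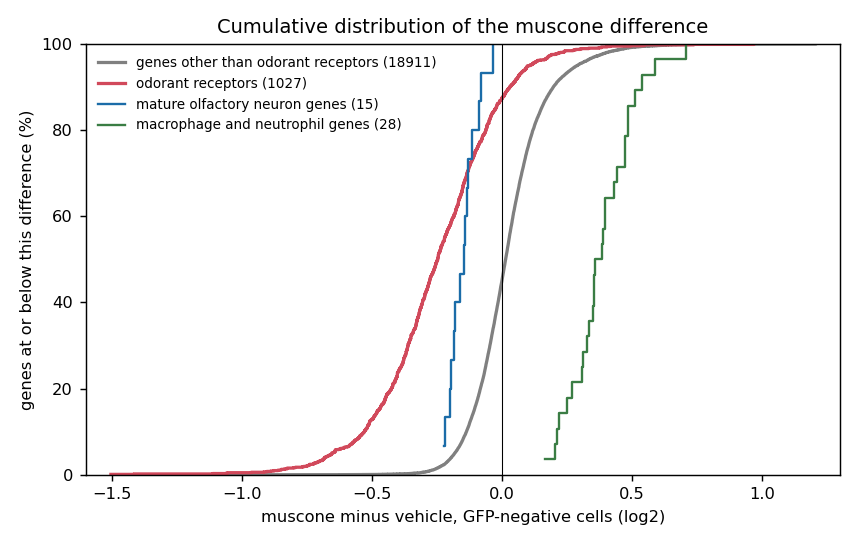
Cumulative share of genes (%) at or below each muscone minus vehicle difference (log2) in GFP-negative cells, for 1027 odorant receptors, 18,911 other genes, 15 mature neuron genes and 28 macrophage and neutrophil genes, on the deposited scale. The receptor curve lies to the left (median −0.25) and the immune curve to the right of the other genes (median 0.01). Centring on neuron genes or receptors takes the receptor median to −0.05 or 0.04 and turns the neuron genes' sign. Each centring brings the list it is built on near 0 by construction.

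Several other receptors had small p-values. Olfr1020 had the smallest raw p of all genes and was at 9.78, 8.0005, 6.70 and 8.38 under vehicle and at 8.39, 7.08, 5.43 and 7.72 under muscone. It was lower in 4 of 4 experiments with overlapping groups, by 1.06 (SE 0.20, adjusted p = 0.153 in limma). In GFP-positive cells its difference was −0.07 (SE 0.20). Olfr220, at 12.12, 10.57, 9.41 and 11.08 under vehicle, was at 11.37, 10.16, 8.65 and 10.66 under muscone. That made it lower in 4 of 4 experiments by 0.59 (SE 0.12, adjusted p = 0.199 in limma), with 0.12 under eugenol. Olfr675, Olfr397, Olfr1082, Olfr385 and the dim Olfr1022 had differences of −0.88, −0.86, −0.80, −0.68 and −0.65. Olfr616, named after its value was seen, was at −1.05, but at −0.57 without experiment 3. The 2 receptors that were higher at a raw p under 0.05 were Olfr1278, by 0.97 (SE 0.31, adjusted p = 0.378 in limma), and Olfr678, by 0.33 (SE 0.14, adjusted p = 0.526). Olfr1278 was at 4.28 under vehicle and 6.50 under muscone in experiment 3, its widest gap, and at 0.55 without that experiment. Olfr1082 was at −0.53 without it.

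Neighbouring receptor genes on chromosome 19 did not all share the differences of Olfr1440. Of the 20 receptors nearest to it in gene order, 17 were below 0 and 5 met a raw p under 0.05, with a median of −0.29. Of all odorant receptors 87.4% were below 0 and 19.4% were lower at a raw p under 0.05. The 5 included Olfr1434, Olfr235 and Olfr1431, and without these the other 17 had a median of −0.19 with 2 at a raw p under 0.05. Olfr1436 and Olfr1441, on either side of Olfr1440, were at 0.08 (SE 0.20) and 0.09 (SE 0.18). Olfr262, between Olfr1431 and Olfr235, was at −0.52 (SE 0.14) and Olfr1446 at −0.51 (SE 0.20), each lower in 4 of 4 experiments. The 20 receptors do not form a single cluster. Olfr1440 lies in a run of receptors from Olfr1417 to Olfr1441, and a separate run from Olfr1444 to Olfr1505 holds Olfr1446. The run of Olfr1440, with the muscone receptors included, had a median of −0.42 and 8 of 17 lower at a raw p under 0.05.

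**Figure D4:**
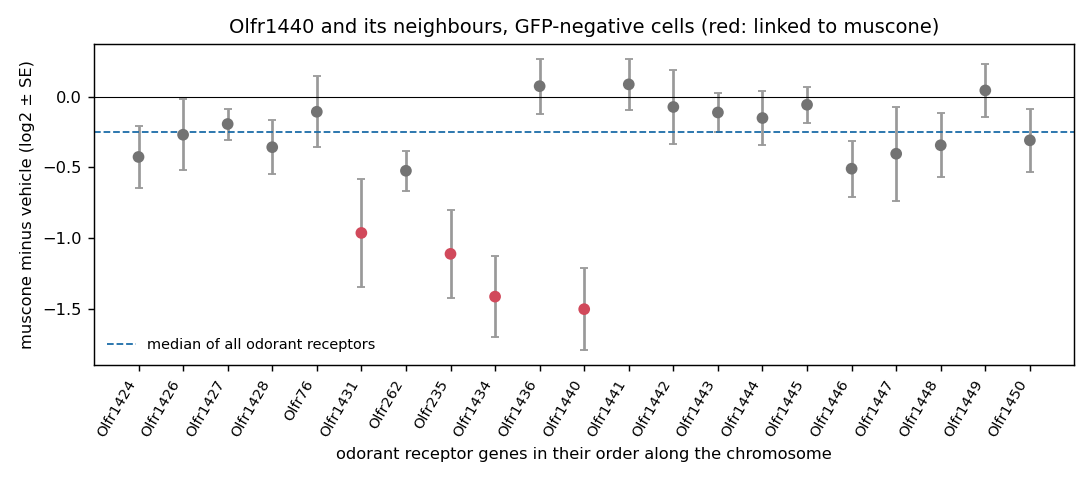
Muscone minus vehicle in GFP-negative cells (log2 ± SE) for Olfr1440 and its 20 nearest tested odorant receptors in gene order, with the receptors linked to muscone in red and the median of all odorant receptors (−0.25) dashed. The 4 red points lie between −1.50 and −0.96, while Olfr1436 and Olfr1441 beside Olfr1440 lie at 0.08 and 0.09.

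Across the genome the lower receptor signal was spread over clusters. In 21 runs of at least 15 tested receptors, holding 869 in all, every run had a median below 0 on the deposited scale. With 87.4% of all odorant receptors below 0, a median below 0 in each run adds no separate result. The medians ran from −0.42 in the run from Olfr1417 to Olfr1441, which holds the muscone receptors, to −0.15 in that from Olfr66 to Olfr646. Receptors were also split into 4 equal bins by their GFP-negative signal in the vehicle arrays of the eugenol experiments. From the dimmest to the brightest bin the medians were −0.16, −0.22, −0.27 and −0.30. Binned by the ratio of GFP-positive to GFP-negative signal in those arrays, the medians were −0.25, −0.18, −0.26 and −0.31, from the least to the most reporter-enriched. The muscone receptors Olfr1440, Olfr1434 and Olfr235 belonged to the least enriched bin and Olfr1431 to the next.

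Trace amine-associated receptors, a small separate family of olfactory receptors for amines, also lay mostly below 0. Of 13 measured, 11 were below 0 (47.4% of all genes) and 5 lower at a raw p under 0.05 (4.37% of all genes), with a median of −0.27 that became −0.07 with the neuron centring and 0.01 with the receptor centring. Taar3 was at −0.70, Taar8b at −0.54, Taar7e at −0.52 and Taar7b at −0.40, with adjusted p-values of 0.310 to 0.552 in limma. Taar8b was dim, with means of 5.49 under vehicle and 4.95 under muscone, and differed by −0.014 in experiment 4. The 90th percentile of vomeronasal receptors was 5.15, and 2 of the 13 had a mean below it. Without experiment 3, Taar3 was at −0.41. The vomeronasal receptors had a median of 0.03. Of 167, 1 was lower and 3 were higher at a raw p under 0.05 (4.37% and 4.18% of all genes).

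Genes that mature olfactory neurons share had small differences. All 15 were below 0 on the deposited scale (47.4% of all genes), but 1 was lower at a raw p under 0.05 (4.37% of all genes). Their median was −0.15 on that scale. It turned to 0.05 with the neuron centring, which is built on these same genes, and to 0.13 with the receptor centring. Omp, which modulates odorant signalling, was at −0.14 (SE 0.09, adjusted p = 0.723 in limma), 0.06 and 0.15 in the same order, and lower in 4 of 4 experiments on the deposited scale. Slc17a6, the vesicular glutamate transporter of these neurons, was that gene, at −0.22 (SE 0.09). Rtp2, which helps receptors reach the cell surface, was at −0.18 (SE 0.09). Immature neuron genes had a median of −0.15 (0.05 and 0.14 with the centrings, −0.05 without experiment 4), with 12 of 13 below 0 (47.4% of all genes). Crmp1, at −0.26, and the tubulin gene Tubb3, at −0.24, met a raw p under 0.05. Axon guidance genes had a median of −0.11 (0.09 and 0.17 with the centrings), with 15 of 16 below 0 (47.4% of all genes) and 3 lower at a raw p under 0.05 (4.37% of all genes), among them the guidance receptor Robo2 at −0.18 (SE 0.06).

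Genes known to follow olfactory neuron activity had no common direction. Of 7 genes raised by activity 5 were below 0 (47.4% of all genes), and the median of −0.07 turned to 0.13 and 0.21 with the centrings. S100a5 was at 6.38, 5.82, 4.63 and 6.38 under vehicle and at 6.34, 6.85, 4.84 and 6.51 under muscone, higher in 3 of 4 experiments. Its difference was 0.33 (SE 0.21, 95% interval −0.11 to 0.78, adjusted p = 0.708 in limma), and 0.10 without experiment 2. Rasgrp4 was higher by 0.37 (SE 0.15), the only 1 of the 7 with a raw p under 0.05. Of 3 genes lowered by activity 2 were below 0 (47.4% of all genes), and the median of −0.16 turned to 0.04 and 0.12 with the centrings. Kirrel3, an adhesion gene, was at −0.22 (SE 0.09), while Plxnc1 from the same list was at 0.40 (SE 0.23). Immediate early genes, the first transcripts after many stimuli, had a median of 0.15, with 16 of 19 above 0 (52.6% of all genes). Fosl2 was at 0.53 (SE 0.23), Btg2 at 0.32 (SE 0.14) and the neuronal Npas4 at −0.34 (SE 0.15), all with a raw p under 0.05. Of all genes 4.18% were higher and 4.37% lower at that raw p. Without experiment 4 the list's median was 0.08, Fosl2 was at 0.35 and Btg2 at 0.18.

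Among regulators of receptor choice 7 of 10 were below 0 (47.4% of all genes), and the median of −0.07 turned to 0.13 and 0.21 with the centrings. Lbr, the lamin B receptor, which is kept low in olfactory neurons, was higher by 0.42 (SE 0.14, adjusted p = 0.392 in limma). Cbx5, a heterochromatin protein gene, was higher by 0.23 (SE 0.08, adjusted p = 0.419). Atf5, the stress factor linked to receptor feedback, was at −0.17 (SE 0.08), and Emx2, a homeodomain factor of these neurons, at −0.23 (SE 0.12).

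Markers of immune cells lay above 0, though few met a raw p under 0.05. All 14 neutrophil genes were above 0 (52.6% of all genes) with a median of 0.35, and all 14 macrophage genes with a median of 0.39. With the neuron and receptor centrings the medians were 0.55 and 0.63 for neutrophils and 0.59 and 0.67 for macrophages, and without experiment 1 the neutrophil median was 0.23. In each list 1 gene was higher at a raw p under 0.05 (4.18% of all genes): Cxcr2 at 0.71 (SE 0.24, adjusted p = 0.411 in limma) and the integrin gene Itgam at 0.59 (SE 0.26, adjusted p = 0.542). Cxcr2 was at 10.29, 10.04, 9.61 and 10.66 under vehicle and at 11.08, 10.35, 10.52 and 11.47 under muscone. Its groups overlapped, and the muscone array was higher in 4 of 4 experiments. Other examples were Mmp8 at 0.54, Ly6g at 0.48 and Fcer1g at 0.48. The neutrophil mean level was 11.67 to 12.15 on vehicle and 12.08 to 12.66 on muscone arrays, and the macrophage level 9.83 to 11.02 and 10.32 to 11.63. No gene of either list was as dim as the vomeronasal receptors. The part of these cells in the lower receptor signal was not tested. In experiments 1 to 4 the neutrophil medians were 0.71, 0.04, 0.32 and 0.40, and the macrophage medians 0.57, 0.09, 0.47 and 0.29. The odorant receptor medians were −0.35, −0.20, −0.17 and −0.23 in the same order.

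T and NK cell genes had a median of 0.41, with 7 of 7 above 0 (52.6% of all genes) and 3 higher at a raw p under 0.05 (4.18% of all genes). With the centrings the median was 0.61 and 0.69. The 3 genes were Cd3e of the T cell receptor complex at 0.43, Cd8a at 0.45 and the granule gene Nkg7 at 0.63. Nkg7 was lower by 0.87 in experiment 2 and at 0.35 without experiment 1, and Cd8a was at 0.28 without experiment 3. B cell and MHC class II genes had a median of 0.19, with 0 of 9 at a raw p under 0.05. In GFP-positive cells the neutrophil median was 0.46 with 6 of 14 higher at a raw p under 0.05 (1.61% of all genes), and the macrophage median 0.48. The signals were far dimmer there: vehicle means of Cxcr2, Ly6g and Mmp8 were 5.88, 5.78 and 6.51, against 10.15, 10.95 and 11.71 in GFP-negative cells. The T and NK cell median was 0.0014 in GFP-positive cells, and that of B cell and MHC class II genes 0.075. Under eugenol in GFP-negative cells the neutrophil median was 0.38 and the macrophage median −0.02.

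**Figure D5:**
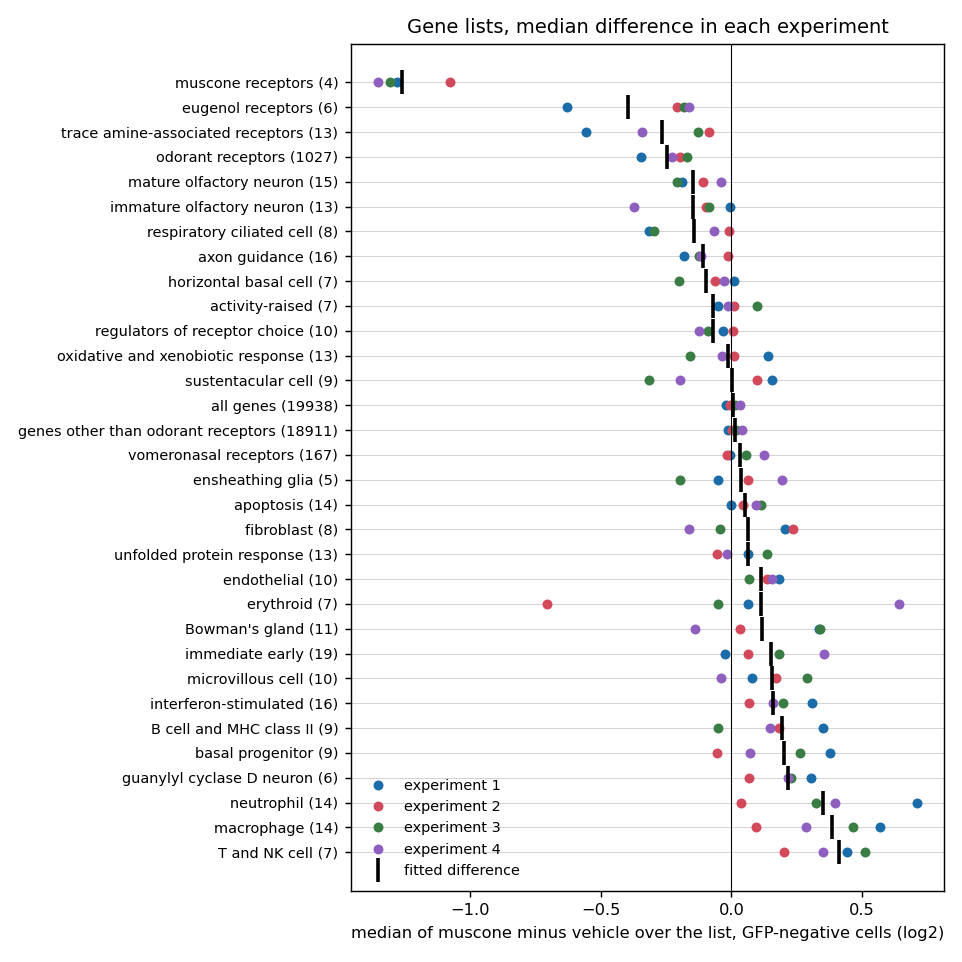
Median muscone minus vehicle difference (log2) of each gene list in GFP-negative cells, with the number of measured genes in brackets, 1 point per experiment and a black bar for the fitted median, on the deposited scale. The muscone receptors lie at −1.26, the odorant receptors at −0.25, and the neutrophil, macrophage and T and NK cell lists at 0.35, 0.39 and 0.41. With arrays centred on neuron genes or on odorant receptors the receptor bar moves to −0.05 or 0.04. The other bars move up with it, so that the neuron lists turn above 0. Each centring brings the list it is built on near 0 by construction.

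Genes of cells that renew or support the epithelium were also listed. Basal progenitor genes had a median of 0.20 (0.40 and 0.48 with the centrings, 0.09 without experiment 1), with 7 of 9 above 0 (52.6% of all genes). The replication genes Pcna, at 0.20 (SE 0.09), and Top2a, at 0.37 (SE 0.17), were higher at a raw p under 0.05 (4.18% of all genes). Top2a was lower in experiment 2, and was at 0.18 without experiment 1 and 0.12 as the mean of its probe sets. Sustentacular cell genes had a median of 0.00 (0.20 and 0.28 with the centrings), with 0 of 9 at a raw p under 0.05. Horizontal basal cell genes had a median of −0.10 (0.10 and 0.19 with the centrings), and Krt15, at −0.63 (SE 0.30), was at −0.06 without experiment 3. Endothelial genes had a median of 0.11 with 9 of 10 above 0 (52.6% of all genes). Flt1, a receptor for vascular endothelial growth factor, was at 7.17, 6.61, 5.18 and 7.41 under vehicle and at 7.51, 7.04, 5.78 and 7.69 under muscone. It was higher in 4 of 4 experiments with overlapping groups, by 0.41 (SE 0.08, adjusted p = 0.153 in limma). Cdh5, of endothelial junctions, was at 0.29 (SE 0.10) and the angiopoietin receptor gene Tek at 0.41 (SE 0.25), and without experiment 1 these were at 0.15 and 0.20. Microvillous cell, Bowman's gland, fibroblast and guanylyl cyclase D neuron genes had medians of 0.16, 0.12, 0.06 and 0.21, with 0 genes of each at a raw p under 0.05. Erythroid genes had a median of 0.11, with 0 of 7 at a raw p under 0.05, and medians of 0.06, −0.71, −0.05 and 0.64 in experiments 1 to 4. Respiratory ciliated cell genes had a median of −0.14 (0.06 and 0.14 with the centrings), with Tekt1 at −0.28 and Dnaic1 at −0.25, the latter at −0.15 without experiment 3.

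Single genes outside these lists with small p-values included 4 that were lower in 4 of 4 experiments. Tex26 was at 9.87, 9.20, 9.01 and 9.28 under vehicle and at 9.55, 8.89, 8.56 and 8.76 under muscone, with overlapping groups. Its difference was −0.40 (SE 0.08, adjusted p = 0.153 in limma). Lix1l was at −0.41 (SE 0.08, adjusted p = 0.153), Ube2ql1, a ubiquitin-conjugating enzyme-like gene, at −0.50 (SE 0.11, adjusted p = 0.199) and the kinase gene Dclk3 at −0.31 (SE 0.07, adjusted p = 0.247). Higher in 4 of 4 experiments were Arhgap26 at 0.44 (SE 0.09, adjusted p = 0.153), and the actin filament genes Tmod3 at 0.40 (SE 0.08, adjusted p = 0.153) and Capza2 at 0.28 (SE 0.07, adjusted p = 0.247). Stx11 and Cd300lf, both genes of blood cells, were at 0.63 (SE 0.15) and 0.72 (SE 0.17). Among apoptosis genes Apaf1, of the apoptosome, was at 0.41 (SE 0.11) and the survival gene Mcl1 at 0.33 (SE 0.12; 0.21 without experiment 4), in a list with a median of 0.05.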

How the data were processed

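RNA of sorted GFP-positive and GFP-negative cells was measured on 32 Affymetrix arrays, 4 in each of 8 groups. The deposited values are log2 signals of 35,556 probe sets, made by the authors in Affymetrix Expression Console, per the submitters' processing notes. Background correction, normalization and version were not given in the sources used here. Arrays have no read depth, and their number limits the precision.

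The platform annotation gave exactly 1 symbol for 21,789 probe sets, several for 1621 and none for 12,146. RefSeq (GRCm38.p6) matched 21,698 of the first by gene ID, with 0 symbols changed. The brightest probe set stood for each of 19,938 genes, and the 13,767 probe sets with several symbols or none were fitted apart, 0 of them past the threshold. Odorant receptors are the 1027 genes with an Olfr symbol.

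The values entered limma 3.58.1 (R 4.3.3) as deposited: 1 fit of all 32 arrays, with 8 group means and fixed effects for the experiments, with 18 residual degrees of freedom and 21.7 with the prior. Tests were two-sided and adjusted by Benjamini-Hochberg over all genes, with a threshold of 0.05. Adjusted p-values for genes are limma's. The procedure was tested on simulated data.

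Experiments come from the array titles. Deviations from the group means of the muscone and vehicle array of 1 experiment correlated at 0.816 to 0.914 in all 4 pairs, above 0.1, and at −0.72 to 0.44 between experiments, so the numbers were taken to pair the arrays. Upstream sequences were read with Python 3.11.15 and aligned with Biopython 1.88. Of 1027 receptors 866 had one.

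The members, lists and rule for named genes were chosen with earlier results of these data known. The rule took genes lower or higher in all 4 experiments with the smallest raw p (12 per direction, above the 90th percentile of vomeronasal receptors), the 10 odorant receptors with the smallest raw p per direction, up to 4 members of each list, and the neighbours of Olfr1440. Olfr616, Olfr859, Prl, Gh, Cga, Pomc, Tshb, Lhb, Fshb and the interferon list were added after values were seen. Other scalings, blocks, filters and sets of arrays were tried, as given at the end.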

Additional observations from a re-analysis of the deposited data

Results flagged for a closer look

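In sets of 4 experiment differences, 9 of 128 held a value set apart from the other 3 by Dixon's criterion, where chance sets apart about 1 in 20. Prl, the prolactin gene, differed by −6.01 in experiment 3 and by −0.17 to 0.34 in the others. Krt15, of horizontal basal cells, differed by −2.33 in experiment 3, against −0.20 to 0.04. The receptor Olfr1082 differed by −1.62 in experiment 3, against −0.63 to −0.44. Olfr235 differed by −0.75 in experiment 2, against −1.26 to −1.20. Also in experiment 2, Mmp8 differed by 0.015, against 0.68 to 0.77, and Pcna by 0.047, against 0.25 to 0.26. In experiment 1, Tek differed by 1.05, against 0.15 to 0.24, and Capza2 by 0.37, against 0.24 to 0.26. The median of the 6 eugenol receptors was −0.63 in experiment 1, against −0.21 to −0.16.

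Among the genes named in the text, 7 had muscone effects that passed a test of the difference between groups or had opposite signs in every experiment of the groups. Over all genes, 71 were lower in 4 of 4 GFP-negative and higher in 4 of 4 GFP-positive comparisons, and 139 the other way round. Between the sorted fractions, GFP-positive minus GFP-negative, the test of the difference passed for Olfr1434 at 3.79. For the others every experiment of one group moved one way and every experiment of the other the opposite way: Olfr1440 at 2.45, Olfr871 at 0.70, Lix1l at 0.53 and Slc17a6 at 0.30, none of which passed the adjusted threshold. Between muscone and eugenol in GFP-negative cells the same held for Ube2ql1 at −0.53 and Bst2 at 0.47, which did not pass it either.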

How the results depend on the processing

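Over 17 other settings and 90 of the named genes, 1439 of 1525 values kept their direction and side of the threshold. Of the rest, 60 newly passed it and 26 changed sign. Genes past the threshold numbered 1 with quantile normalization (Olfr1022), 10,022 with arrays centred on odorant receptors, and 1 with the 8 GFP-negative arrays alone (Olfr1440). With the replicate block by experiment and fraction 4 passed (Olfr1440, Olfr859, Olfr235 and Ube2ql1), and 4 with a random replicate block (Igkv19-93, Olfr1020, Olfr1434 and Olfr1440), against 0 as reported; the cause was not tested. Muscone receptors past it numbered 3, 1, 2 and 2 with the receptor centring, the 8 arrays and these blocks.

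At a raw p under 0.05 the lower genes numbered 68 and 34 with the neuron and receptor centrings and 2 with no replicate block (501 to 899 leaving out experiments). The higher ones numbered 4682, 12,455 and 4 (454 to 1205). With centring on all probe sets they split 1186 to 648, or 64.7% lower against 51.1% as reported. Lower odorant receptors numbered 64, 34 and 2, and 373 with the 8 arrays (138 to 195 leaving out experiments). Genes that differed between fractions numbered 2 with quantile normalization, the neuron centring, both replicate blocks and array weights, 13 with the receptor centring and 0 with no replicate block (1 to 2 leaving out experiments).

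With the neuron and receptor centrings the sign turned for Olfr913 (0.0023 and 0.086), Olfr958 (0.062 and 0.15), Omp (0.063 and 0.15), Rtp2 (0.017 and 0.10), Atf5 (0.030 and 0.11), Robo2 (0.019 and 0.10) and Tshb (0.12 and 0.21). With the receptor centring alone it turned for Olfr961 (0.019), Slc17a6 (0.065), Crmp1 (0.025), Tubb3 (0.038), Kirrel3 (0.065), Emx2 (0.051), Tekt1 (0.0053), Dnaic1 (0.034), Eif2s3y (0.043) and Pomc (0.021). Leaving out experiments, Prl ran from −2.06 to 0.053 and Cga from −0.76 to 0.16, both highest without experiment 3. The array scaling before deposit is unknown, and 4 arrays a group limit the precision.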

Other observations

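Interferon-stimulated genes, a list added after the values were seen, had a median of 0.16 under muscone in GFP-negative cells. Above 0 were 14 of 16 (52.6% of all genes). Zbp1, a sensor of nucleic acids, was at 0.40 (SE 0.09, adjusted p = 0.235 in limma), the transcription factor gene Irf7 at 0.50 (SE 0.12, adjusted p = 0.263) and Bst2 at 0.38 (SE 0.18, adjusted p = 0.569; 0.23 without experiment 3). Ifit1, from the same list, was at −0.37 (SE 0.11, adjusted p = 0.350). Immunoglobulin genes, taken by a symbol pattern after values were seen, had a median of 0.28, with 4 of 12 higher at a raw p under 0.05 (4.18% of all genes), but the medians were 0.87, −0.03, 0.02 and 0.19 in experiments 1 to 4. Igkv19-93 was the gene with the highest difference of all, at 8.70, 8.27, 7.31 and 8.99 under vehicle and at 10.79, 9.60, 8.28 and 9.43 under muscone. Its difference was 1.21 (SE 0.25, adjusted p = 0.153 in limma). Ighm, the heavy chain gene of IgM, was higher by 0.95 (SE 0.25, adjusted p = 0.296) and the T cell receptor segment Trbv1 by 0.48 (SE 0.12, adjusted p = 0.264). As the mean of its probe sets Ighm was at 0.38 and Igkv19-93 at 0.73.

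Genes of cytosolic ribosomal proteins had a median of 0.05, with 47 of 57 above 0 (52.6% of all genes) and 0 at a raw p under 0.05. Subunits of respiratory complex I and ATP synthase had a median of −0.04, with 47 of 60 below 0 (47.4% of all genes). Only 2 were lower at a raw p under 0.05 (4.37% of all genes).

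Prl and Gh were the only genes other than odorant receptors among the 7 that were lower by more than 1 (0.0351% of genes), and neither had a small p. Prl was at 5.26, 5.00, 10.88 and 5.67 under vehicle and at 5.09, 4.99, 4.87 and 6.01 under muscone. Gh was at 7.60, 6.72, 9.96 and 7.83 under vehicle and at 7.61, 6.96, 5.44 and 7.15 under muscone. In the GFP-positive cells of experiment 3, Gh was at 8.75 under vehicle and 5.66 under muscone, and Prl at 5.95 and 4.76. Other pituitary hormone genes on the GFP-negative arrays of experiment 3, vehicle and muscone, were Cga at 7.42 and 5.22 and Pomc at 6.96 and 6.08. Tshb was at 4.27 and 4.30, Lhb at 6.46 and 6.37, and Fshb at 5.23 and 5.34. On the vehicle GFP-negative arrays of experiments 1, 2 and 4, Pomc was at 7.74, 6.33 and 7.38.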
